A study of Mus musculus with 27 samples.

Results

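The liver X receptors LXRα and LXRβ were mapped by ChIP-seq, the sequencing of DNA pulled down with an antibody to a protein, in Kupffer cells, macrophages that reside in the liver. The mice were on a model diet for non-alcoholic steatohepatitis (NASH), in which fat and inflammation build up in the liver, or on a control diet. The subject here is the set of LXR sites that gained enrichment on the NASH diet. An LXR site of the NASH list and 1 of the control list were paired where they overlapped by at least 1 bp, with the higher enrichment score deciding where several overlapped. A pair was called strengthened where its score was at least 1.5 times as high in NASH as in control and at least 60 in NASH. The members were thus chosen by their measured LXR enrichment scores. This rule took 826 of 36473 pairs (2.26%). The opposite rule, a score at least 1.5 times as high in control and at least 60 in control, took 5683 pairs, called weakened below. With every ratio divided by the median ratio of all pairs, the counts were 1949 strengthened and 1893 weakened. The 12902 other pairs with a NASH score of at least 60 are the main comparison. Their control scores ran higher, with a median of 107 against 47 at strengthened pairs. A set closer in control score is described below. It is not part of the figures or of the counts of H3K27ac windows.

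Both groups were C57BL/6J mice, and the cells were sorted as Kupffer cells with high F4/80 and surface Tim4, so macrophages that lack Tim4 were not part of the material. LXR, the acetyltransferase P300, the transcription factor ATF3 and the histone mark H3K27ac were each profiled in 2 NASH libraries and 2 control libraries. The labels name an input pair for LXR and P300 together on each diet and, on the control diet, another pair for LXR alone. Labels and headers do not say which pair entered the control LXR list. The H3K27ac cells were taken with flavopiridol, a blocker of transcription, in the buffers. Age, sex, the number of mice behind a library and whether replicates came from separate mice are not given in the labels, so the spread behind each p-value is that of these libraries and may be technical. The ATAC list behind the H3K27ac windows is named for 20 weeks, while the file headers of the LXR and P300 sites in NASH name the diet differently, so the time on the diet may differ between these data.

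LXRs are nuclear receptors that are switched on by oxysterols. They pair with RXR on DNA, classically at 2 AGGTCA-like half-sites spaced by 4 bases (a DR4 element), and drive genes of cholesterol efflux and fatty acid synthesis. In Kupffer cells they also help to hold the identity of the cell type. P300 acetylates histones at active enhancers, where H3K27ac marks the neighbouring nucleosomes, and ATF3 is a stress-induced factor that binds sites of the AP-1 type. These were searched with the pattern TGANTCA, in which N is any base.

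Strengthened sites were rarely at promoters, so few of them lay in sequence at hand. Of the 826 sites, 19 overlapped 1 of the 32817 RefSeq promoter windows (250 bases before to 50 after a gene start, GRCm38.p6, the same build as mm10). TGANTCA, searched on both strands, was in 7 of these 19 windows (36.8%), against 7.02% of the 1666 windows under other pairs with a NASH score of at least 60 and 7.81% of all windows. The AGGTCA half-site was in 4 of 19 (21.1%), against 17.0% and 16.3%, and the ETS-type motif GAGGAA, of the kind bound by PU.1 in macrophages, in 6 of 19 (31.6%), against 31.1% and 28.3%. The C/EBP-type motif TTGCNNAA was in 2 of 19 (10.5%), against 10.7% and 10.8%. A DR4 (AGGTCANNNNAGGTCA, at most 2 mismatches in the 12 half-site letters) was in 1 of 19 (5.26%), against 3.24% and 3.02%. Each window was scored over its whole 300 bases, 19 windows are few, and a match is a description of letters, not a bound site. The 6 overlaps below, chosen after their values were seen, are the bases shared by an LXR site and a promoter window with TGANTCA inside the shared part. Capitals mark TGANTCA and, in Gm52034, also the DR4-like stretch directly before it. The pattern reads TGAATCA at Trem2 and Tfe3, and TGACTCA in the other overlaps.

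Trem2, lipid-sensing receptor of macrophages, chr17:48346318-48346450, plus strand: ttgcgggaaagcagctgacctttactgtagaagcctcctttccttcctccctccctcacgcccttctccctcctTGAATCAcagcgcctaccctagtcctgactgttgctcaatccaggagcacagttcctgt
Tfe3, transcription factor of lysosomal genes, chrX:7763788-7763992, plus strand: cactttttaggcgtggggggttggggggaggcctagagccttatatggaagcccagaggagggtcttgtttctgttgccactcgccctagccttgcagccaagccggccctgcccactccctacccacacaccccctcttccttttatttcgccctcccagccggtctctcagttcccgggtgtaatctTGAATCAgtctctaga
Glrp1, chr1:88510017-88510168, minus strand: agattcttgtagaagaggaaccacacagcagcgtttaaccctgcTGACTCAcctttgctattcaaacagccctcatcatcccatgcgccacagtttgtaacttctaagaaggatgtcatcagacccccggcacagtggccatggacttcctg
Gm13523, chr2:32882823-32882896, minus strand: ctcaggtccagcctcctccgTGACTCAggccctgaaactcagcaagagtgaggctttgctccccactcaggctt
5033421B08Rik, chr12:8510976-8511206, plus strand: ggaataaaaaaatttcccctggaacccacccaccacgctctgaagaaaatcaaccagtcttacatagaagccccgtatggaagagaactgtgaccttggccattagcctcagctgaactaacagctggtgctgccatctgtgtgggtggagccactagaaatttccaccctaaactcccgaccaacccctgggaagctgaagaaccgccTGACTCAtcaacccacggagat
Gm52034, chr13:112673241-112673471, minus strand: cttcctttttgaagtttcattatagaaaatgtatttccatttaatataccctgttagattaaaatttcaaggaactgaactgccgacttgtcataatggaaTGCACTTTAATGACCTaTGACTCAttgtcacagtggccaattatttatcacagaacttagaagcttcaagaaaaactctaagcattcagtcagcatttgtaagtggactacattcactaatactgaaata

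At Trem2 the LXR score was 75 in NASH and 40 in control, with a P300 site in the NASH list only and an ATF3 site in both lists. Its window held 10.13 and 6.76 normalised tags of H3K27ac in NASH, against 5.28 and 4.86 in control (adjusted p = 0.489, limma), a difference that did not pass the test. At Tfe3 the score was 64 in NASH and 37 in control. P300 was in both lists there (51 in NASH, 40 in control), and ATF3 in the control list only. Unlike at Trem2, H3K27ac was lower in both NASH libraries, with 9.60 and 5.72 normalised tags against 13.73 and 14.59 in control. This difference did not pass the test either (adjusted p = 0.254, limma).

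The LXR scores, which the rule used, are given as a description only. The enrichment score is the authors' own value for each site in a list built from both libraries of a diet, so it has no replicate spread. Strengthened sites had NASH scores of 60 to 518 (median 87) and control scores of 25 to 316 (median 47). Their ratio ran from 1.5 to 9.92 with a median of 1.76, while the median over all pairs was 0.812, so the typical pair scored lower in NASH. The lists differed in length, with 51709 sites in NASH and 44463 in control. Members at the edge of the rule were sites near Akap7 (60 in NASH, 40 in control) and Nek6 (66 and 44), while a site near Cbr4 (154 and 103, ratio 1.495) and a site near Tiparp (59 and 32) fell just outside it. Another 300 pairs had a ratio of at least 1.5 with a NASH score under 60.

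**Figure D1:**
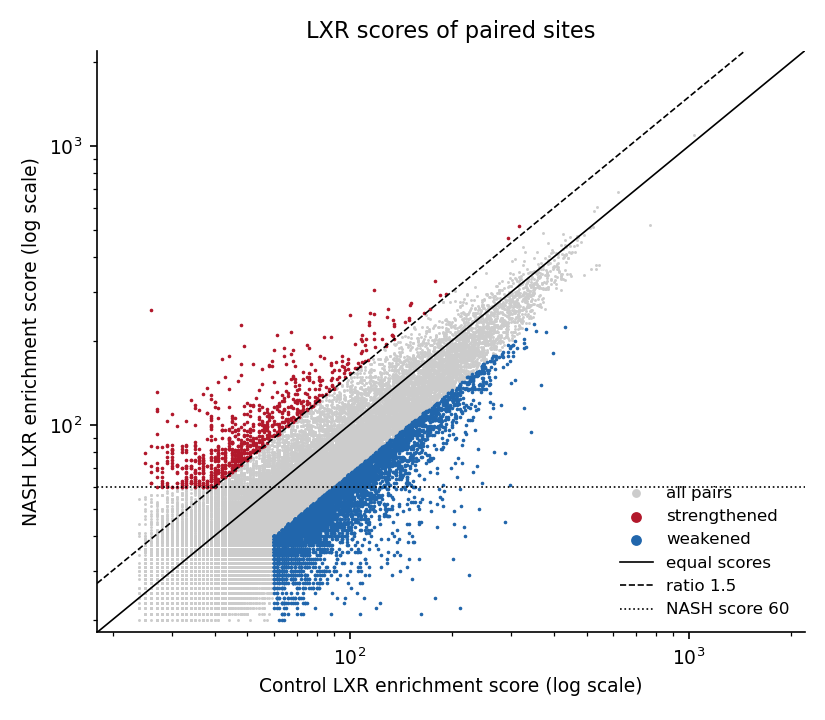
Authors' LXR enrichment score in the NASH list (y axis) against the control list (x axis), both on log scales, for all 36473 pairs (grey), the 826 strengthened pairs (red) and the 5683 weakened pairs (blue). Lines mark equal scores, the ratio of 1.5 and the NASH score of 60, and the red points reach 518 in NASH.

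The strongest strengthened sites in NASH lay at genes of several functions. The first was near Mdm1, a microtubule-binding protein of centrioles, at chr10:118085122-118085641, with scores of 518 in NASH and 316 in control. Others were near Pik3cb, a catalytic subunit of phosphoinositide 3-kinase (327 in NASH, 179 in control), Vcam1, an adhesion molecule that holds leukocytes (292 and 185), Fmn1, a formin of the actin cytoskeleton (274 and 152), and Scd1, the stearoyl-CoA desaturase and a classic LXR target (270 and 151). The chemokine gene Ccl6 (260 and 130), the histamine receptor gene Hrh1 (260 and 173) and sites near Gm5122 (468 and 294), 4930564C03Rik (304 and 118) and Mir5626 (295 and 193) completed the 10 highest.

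The largest ratio was in an intron of Gusb, the lysosomal beta-glucuronidase, where LXR scored 258 in NASH and 26 in control (chr5:129995135-129995356). This site lay in an ATAC window of the diet list only, with P300 and ATF3 sites in the NASH lists only. It was followed by Specc1l (131 in NASH, 27 in control), Stard5, a sterol and bile acid carrier of the START family (229 and 48), Sh3pxd2b, the podosome adaptor TKS4 (114 and 27), and Tnfaip3, the ubiquitin-editing brake on NF-κB signalling (112 and 27). The remaining 5 of the 10 largest were near Morn4 (172 and 42), Dnmt3aos (176 and 44), Cd248 (192 and 49), Fmo9 (109 and 30) and Irgc1 (123 and 34). Of these 10 sites, Fmo9 and Irgc1 had P300 in both lists and the other 8 had it in the NASH list only.

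Strengthened sites spread over 704 nearest genes, of which 605 had 1 such site, 80 had 2 and 19 had 3 or more. Another strengthened site lay within 20000 bp of 18.5% of them. The most, 4 sites each, were near 4930563J15Rik, Dnmt3a, a DNA methyltransferase, Fmn1, and Gda, a guanine deaminase. Scd1 had 3 sites over 26808 bp, and Mmp12, macrophage elastase, had 3 over 10139 bp. The sites of Fmn1 spanned 257974 bp, with NASH scores of 274, 79, 74 and 67 against control scores of 152, 45, 40 and 36.

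Position was not used by the rule. An ATAC window was present at 723 of the 826 sites (87.5%), and each site had its own window. Introns held 50.1% of these windows, intergenic stretches 44.0% and promoters 3.04%, against 24.7% at promoters over all pairs, 17.7% over the other pairs with a NASH score of at least 60 and 36.6% over weakened pairs. A closer set, used again below, holds the 1036 other pairs with a NASH score of at least 60 whose control score fell between the quartiles of the strengthened ones (39 to 63), and there promoters held 7.92%. The median distance to the nearest gene start was 21257 bp for strengthened sites, 12543 bp for the other pairs with a NASH score of at least 60, 17140 bp for the closer set and 3579 bp for weakened pairs. Windows found in the diet ATAC list only made up 8.30% of those of strengthened sites, against 2.09% over all pairs, 4.07% in the closer set and 0.920% over weakened pairs. Windows of the control ATAC list only made up 7.88%, against 15.6% over all pairs, 9.57% over the other pairs with a NASH score of at least 60 and 16.1% in the closer set. These shares compare sites of 1 list per diet, which gives no replicate error.

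**Figure D2:**
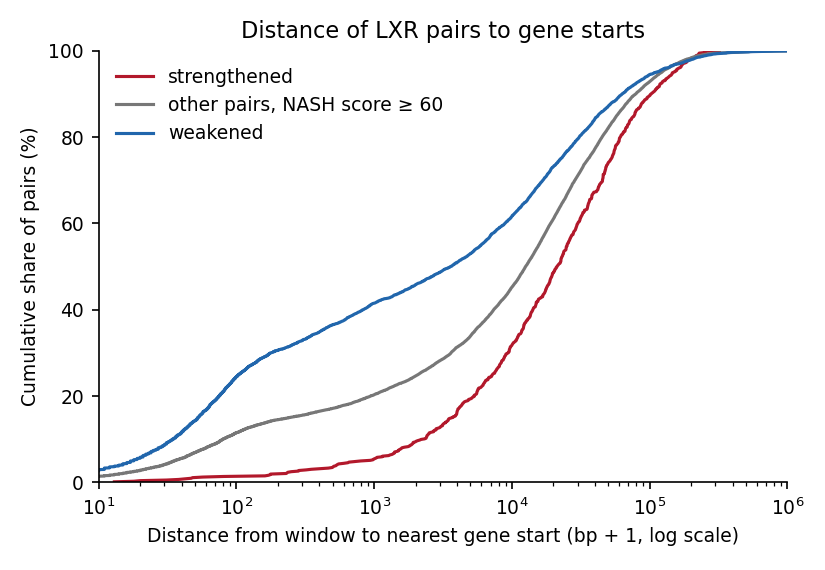
Cumulative share of LXR pairs (%) against the distance from their ATAC window to the nearest gene start (bp + 1, log scale), for strengthened pairs, other pairs with a NASH score of at least 60, and weakened pairs. The strengthened curve lies to the right of both others, with a median of 21257 bp against 12543 and 3579 bp.

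P300 sat at most strengthened sites in NASH and at few of them in control. A P300 site was in the NASH list only at 587 of 826 sites (71.1%), in both lists at 191 (23.1%), in the control list only at 2 and in neither at 46. Over all LXR pairs the share with P300 in the NASH list only was 33.4%, in both lists 51.8% and in the control list only 1.95%. Among the other pairs with a NASH score of at least 60 these shares were 23.3% and 72.0%, and among weakened pairs 21.9% and 63.8%. Many strengthened sites scored low in control, and in the closer set with control scores of 39 to 63 the shares were 54.0% and 36.5%. The P300 lists held 52628 sites in NASH and 25219 in control, and the part of list length in these shares was not tested.

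Where P300 was listed on both diets, its own score, which the rule did not use, was higher in NASH at most LXR pairs. The P300 score ratio of NASH over control had a median of 3.85 at the 191 strengthened sites (quartiles 3.03 and 4.57), against 2.33 over all pairs, 2.62 over the other pairs with a NASH score of at least 60, 2.71 in the closer set and 2.00 over weakened pairs. A ratio of at least 1.5 was met by 95.8% of strengthened sites and by 91.5% of all pairs, so that count does not set the strengthened sites apart. At Irgc1, an immunity-related GTPase gene, P300 scored 213 in NASH and 22 in control. At Fmn1 it scored 152 in NASH and 24 in control, at Pik3cb 232 and 48, and at Mdm1 196 and 68.

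ATF3 was also more often in the NASH list only, while its share in both lists was near that of all pairs. An ATF3 site was in the NASH list only at 487 strengthened sites (59.0%), in both lists at 249 (30.1%), in the control list only at 1 and in neither at 89 (10.8%). Over all pairs 28.5% had ATF3 in the NASH list only, 31.9% in both, 5.09% in the control list only and 34.5% in neither. Over the other pairs with a NASH score of at least 60 the shares in the NASH list only and in both were 28.5% and 53.3%. In the closer set with control scores of 39 to 63 these shares were 45.8% and 31.6%. Over weakened pairs the shares were 22.1% and 30.6%, and 37.4% had no ATF3 site. P300 and ATF3 were both confined to the NASH lists at 382 strengthened sites (46.2%), against 12.3% of all pairs, 9.72% of the other pairs with a NASH score of at least 60, 28.7% of the closer set and 5.21% of weakened pairs. The ATF3 lists likewise differed in length, with 38828 sites in NASH and 16109 in control.

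**Figure D3:**
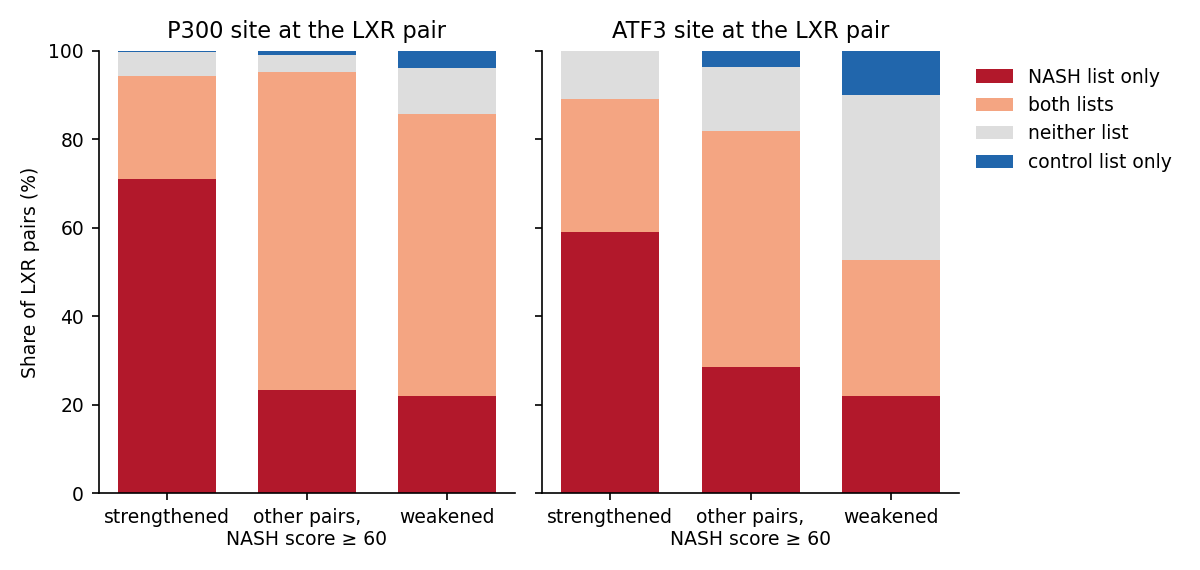
Share of LXR pairs (%) with a P300 site (left) or an ATF3 site (right) in the NASH list only, both lists, neither list or the control list only, for strengthened pairs, other pairs with a NASH score of at least 60, and weakened pairs. The NASH-only part is 71.1% for P300 and 59.0% for ATF3 at strengthened pairs, against 23.3% and 28.5% at the other pairs.

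H3K27ac at strengthened sites was higher in NASH than in control. The mark was measured in the ATAC windows, and the rule did not use it. Its values are normalised tags, that is, tags per 10000000 of a library after the authors' scaling. The 723 windows held 0.858% and 0.880% of all tags in windows in the NASH libraries, against 0.606% and 0.610% in the control libraries (exact 95% binomial intervals within 0.844 to 0.895% in NASH and 0.590 to 0.622% in control, covering counting error only). Both NASH libraries lay above both control libraries, while the windows of weakened pairs held 7.75% and 7.56% in NASH and 8.99% and 8.62% in control. The median strengthened window held 5.33 and 5.20 normalised tags in NASH, against 4.22 and 3.10 in control.

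Window by window, both NASH libraries exceeded both control libraries in 290 of 723 strengthened windows (40.1%), against 14.8% of all 70300 windows, 13.1% of the windows of other pairs with a NASH score of at least 60 and 7.12% of those of weakened pairs. Both NASH libraries were below both control libraries in 86 windows (11.9%), against 30.8% of all windows. The deposited scaling puts the median of all windows below 0, so changes are given relative to that median (log2 of -0.26 over tested windows and -0.23 over all windows with a tag). With scaling by TMM, which moves this median to about 0, the higher count was 351 (48.5%), against 21.7% of all windows, and the lower count 61 (8.44%), against 22.2%. Without any filter on low values, the median log2 change of value + 1 relative to all windows was 0.61 over strengthened windows, -0.02 over the other pairs with a NASH score of at least 60 and -0.21 over weakened pairs. It was 0.16 over the other pairs with a control score of 39 to 63.

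Among strengthened windows the H3K27ac change is given by the state of P300 and ATF3, as a description. The unfiltered median relative to all windows was 0.72 over the 515 windows with P300 in the NASH list only, 0.42 over the 186 with P300 in both lists and 0.21 over the 20 with P300 in neither. For ATF3 it was 0.70 over 435 windows with a site in the NASH list only, 0.48 over 242 with a site in both and 0.29 over 45 with none. Over all LXR pairs with P300 in the NASH list only, the same median was -0.02 over 10227 windows, and in the closer set 0.22 over 494. Across strengthened windows with P300 in both lists the H3K27ac change and the P300 ratio had a Spearman correlation of 0.20 (186 sites), given as a description over sites that share their libraries and have low tag counts.

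**Figure D4:**
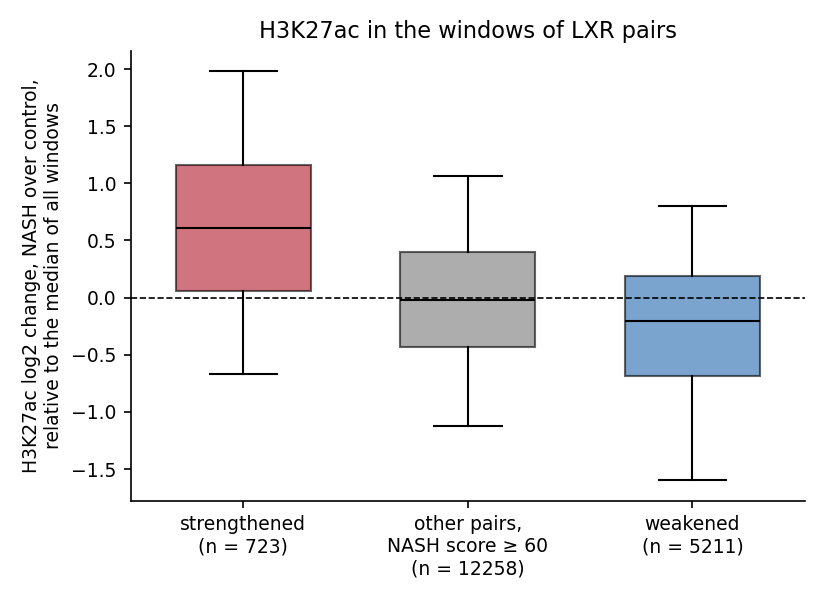
H3K27ac log2 change of normalised tags + 1, NASH over control, relative to the median of all windows, in the windows of strengthened pairs (n = 723), other pairs with a NASH score of at least 60 and weakened pairs; boxes show quartiles, centre lines medians and whiskers the 5th and 95th percentiles of windows, not replicate error. The medians are 0.61, -0.02 and -0.21.

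The fit across all windows tested 350 of the 723 windows, since the others held too few tags, and 103 sites had no window. It called 34 strengthened windows raised (limma, adjusted p under 0.05 with a log2 of 1 or more), 9.71% of those tested against a background of 2.00% of all tested windows, and 0 lowered, against 4.59%. At an unadjusted p under 0.05 by limma 97 were higher and 11 lower (backgrounds 5.85% and 17.3%). The edgeR test called 71 raised and 0 lowered (backgrounds 3.78% and 3.14%), and DESeq2 16 raised and 0 lowered (backgrounds 1.19% and 0.573%). Of the tested windows 115 passed the filter through the NASH libraries alone, and so did 23 of the 34 called raised, so this count carries no support by itself. With no filter 7 windows were called raised (0.968%, background 0.195%) and 0 lowered (background 0.244%). With TMM scaling 61 were raised (background 3.31%) and 0 lowered (background 2.51%). For the fits with a library left out, which follow, the background shares are not given here. Without NASH library 1, NASH library 2 or control library 1 the count raised was 7, 11 or 53, and without control library 1 or 2 there were 1 and 3 lowered.

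The 2010111I01Rik window (site chr13:63253208-63253499, intron) held 40.00 and 37.44 normalised tags in NASH, against 6.34 and 6.19 in control. The window upstream of Notch4, a Notch receptor best known from endothelium (site chr17:34556345-34556570), held 31.47 and 40.04 in NASH, against 6.34 and 3.54 in control. The Unc93a window (site chr17:13145003-13145237) held 52.27 and 37.44 in NASH, against 5.28 and 9.29 in control. In all 3 the diets did not overlap, which adds no support, since the windows were picked by their adjusted p. The windows of Notch4 and Unc93a passed the low-value filter through the NASH libraries alone. So did those of Sh3pxd2b, Bach2, Gpa33, 4930554I06Rik, Ppcdc, Dnmt3aos and Plaur below, and their p values carry no support by themselves. Relative to all windows the log2 changes at the 3 were 2.71 ± 0.36 (SE, adjusted p = 0.000664), 2.92 ± 0.40 (SE, adjusted p = 0.000962) and 2.75 ± 0.37 (SE, adjusted p = 0.000746) by limma. The LXR scores there were 69, 142 and 231 in NASH, against 27, 41 and 135 in control.

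In an intron of Sgms1, a sphingomyelin synthase, H3K27ac was 50.13 and 29.64 normalised tags in NASH, against 8.45 and 9.29 in control (log2 change relative to all windows 2.26 ± 0.36 SE, adjusted p = 0.00281, limma). In an intron of Sh3pxd2b it was 19.73 and 14.56 in NASH, against 0 and 1.33 in control (adjusted p = 0.00186, limma). Near Bach2, a transcriptional repressor of lymphocytes, it was 10.13 and 7.80 in NASH, and both control libraries had none, which allows up to 3.17 and 1.33 (adjusted p = 0.00530, limma). The fitted change there depends on the pseudocount and is not given. The LXR scores were 96 in NASH and 56 in control at Sgms1, 73 and 37 at Sh3pxd2b, and 129 and 37 at Bach2.

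Gpa33 (20.27 and 20.80 normalised tags in NASH, 2.11 and 0.88 in control), 4930554I06Rik (24.00 and 14.56, against 1.06 and 1.33), Ppcdc, an enzyme of coenzyme A synthesis (29.33 and 16.12, against 5.28 and 2.65), and 2610301B20Rik (37.33 and 37.44, against 12.67 and 12.82) completed the 10 smallest adjusted p values. Also called were windows at Dnmt3aos (17.60 and 19.24 in NASH, 5.28 and 5.31 in control, adjusted p = 0.0276, limma) and Plaur, the urokinase receptor (20.80 and 17.16 in NASH, 9.51 and 2.65 in control, adjusted p = 0.0462, limma). The Dnmt3aos window lies in the antisense partner of Dnmt3a, and ChIP tags have no gene strand, so the window cannot be given to either gene alone. The calls at Sgms1, Ppcdc, 2610301B20Rik, Dnmt3aos and Plaur were lost without NASH library 1 (adjusted p = 0.0949, 0.143, 0.0856, 0.140 and 0.235, limma), and those at 2610301B20Rik, Dnmt3aos and Plaur also without NASH library 2 (adjusted p = 0.119, 0.239 and 0.219). Plaur was lost without control library 2 as well (adjusted p = 0.191). With no filter on low values Bach2, Ppcdc, 2610301B20Rik, Dnmt3aos and Plaur were not called (adjusted p = 0.0560, 0.0745, 0.0600, 0.101 and 0.176, limma). DESeq2 gave adjusted p = 0.0911 at Dnmt3aos and 0.111 at Plaur.

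**Figure D5:**
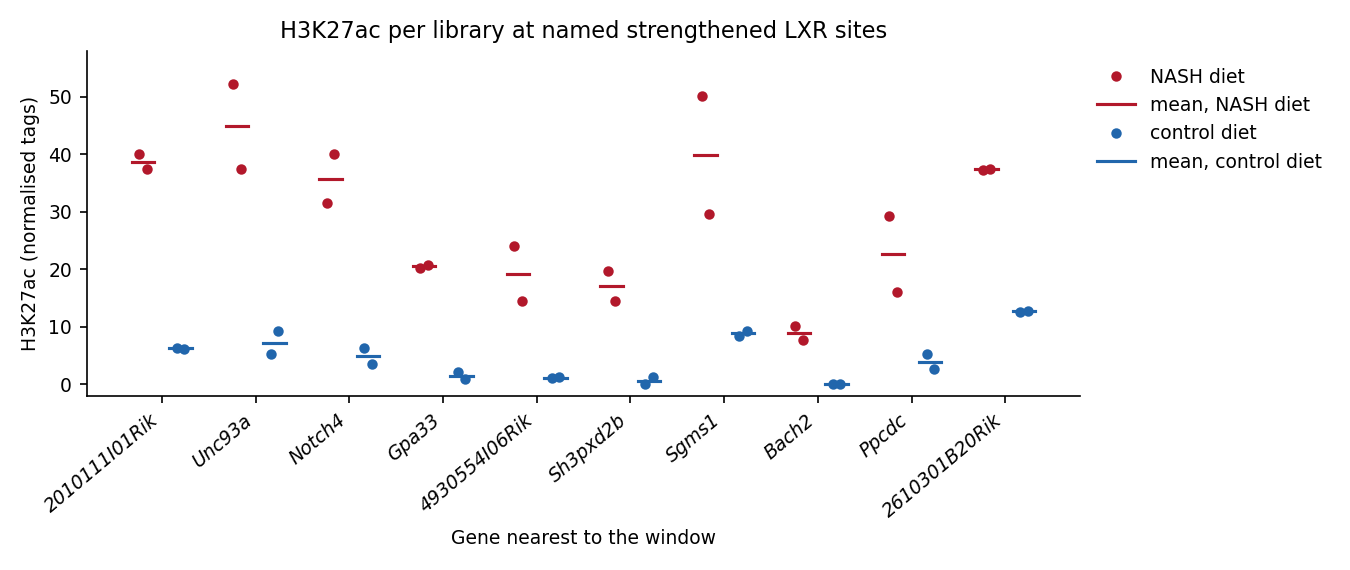
H3K27ac in normalised tags (y axis) at the 10 strengthened sites with the smallest adjusted p among windows called raised, by nearest gene; dots are the 2 NASH libraries (red, left) and the 2 control libraries (blue, right), and bars their means. At each of the 10 both NASH libraries lie above both control libraries, which the choice by adjusted p favours, and Bach2 has no control tag.

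No H3K27ac window was called at the 10 sites with the highest NASH scores. Those of Gm5122, 4930564C03Rik and Scd1 were not tested. At Mdm1 the window held 67.20 and 59.80 normalised tags in NASH, against 46.47 and 40.68 in control (log2 change relative to all windows 0.79 ± 0.25 SE, adjusted p = 0.199, limma), so both NASH libraries lay above both control libraries without a call. At Pik3cb it held 25.07 and 32.24 in NASH, against 27.46 and 35.37 in control, and at Vcam1 24.00 and 15.60, against 21.12 and 20.34. The diets overlapped at Pik3cb and Vcam1. Of the 10 sites with the largest LXR ratio, Dnmt3aos and Cd248 had a tested window, and at Cd248 it held 9.07 and 15.60 in NASH, against 3.17 and 3.98 in control (adjusted p = 0.0781, limma).

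H3K27ac was also summed over all windows nearest to a gene, the strengthened window included. Of the genes with a strengthened site 615 were tested, and 86 of their sums were raised (14.0%, against 2.89% of all genes) and 39 lowered (6.34%, against 11.0%; adjusted p under 0.05, limma). How many of the 86 passed the low-value filter through the NASH libraries alone was not counted. Among genes with a weakened site 1.06% were raised and 18.7% lowered. Sgms1 summed to 533.32 and 533.52 normalised tags in NASH, against 158.41 and 144.58 in control (log2 relative to all genes 2.10 ± 0.14 SE, adjusted p = 3.55e-08, limma). Tnfaip3 summed to 675.73 and 599.04 in NASH, against 318.97 and 349.29 in control (1.21 ± 0.12 SE, adjusted p = 3.23e-05, limma). Both genes were higher in each NASH library than in either control library. With TMM scaling 180 sums were raised and 18 lowered, against 7.06% and 6.18% of all genes. For the fits with a library left out, which follow, the shares of all genes are not given here. Raised sums numbered 34 if NASH library 1 was left out and 32 if NASH library 2 was. Lowered sums numbered 19 and 7 in those fits, and 21 if control library 1 was left out.

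LXR target genes had 10 strengthened sites at 7 of the 28 list genes with an LXR pair, and 10 of the 28 had a weakened site. Of all 10061 tested genes with an LXR pair, 615 had a strengthened site and 3670 a weakened one. The counts of this list and of those below stand beside that background and were not tested against it. The 7 genes with strengthened sites were the cholesterol exporters Abca1 and Abcg1, the desaturase gene Scd1, Mylip, which degrades the LDL receptor, the phagocytic receptor Mertk, Tgm2, a transglutaminase of efferocytosis, and Cd5l, a secreted macrophage protein. LXR scored 207 in NASH and 88 in control in an intron of Abca1, and 102 and 50 in an intron of Abcg1. At the Abcg1 site H3K27ac was 13.87 and 23.40 normalised tags in NASH, against 8.45 and 7.96 in control (adjusted p = 0.131, limma). At the Abca1 site it was 5.87 and 13.52 in NASH, against 12.67 and 4.86 in control, so the diets overlapped. The gene sum of Abca1 was 899.76 and 798.20 in NASH, against 704.46 and 702.60 in control, and that of Abcg1 467.21 and 465.40, against 409.81 and 408.12. Neither was called by limma on the deposited scaling (adjusted p = 0.0869 and 0.300), while both were raised with TMM scaling (adjusted p = 0.00845 and 0.0283), edgeR (0.00871 and 0.0289) and DESeq2 (0.00330 and 0.0493). Of the 7 gene sums 0 were raised on the deposited scaling, with 1 higher at an unadjusted p under 0.05, and 1 was lowered. That was Scd1, with 206.95 and 195.00 in NASH, against 302.07 and 252.91 in control (adjusted p = 0.0467, limma), a call not met with TMM scaling (adjusted p = 0.512), where its change relative to all genes was -0.16 on the log2 scale. It was also lost without NASH library 1, NASH library 2 or control library 1 (adjusted p = 0.116, 0.278 and 0.329, limma) and with no filter on low values (0.0851).

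Genes of the lipid-associated or scar-associated macrophage, the state described in fatty and fibrotic liver, had 11 strengthened sites at 7 of 21 genes with a pair, and 8 of the 21 had a weakened site. Scores were 193 in NASH and 111 in control near Anxa2, an annexin, 157 and 93 near Cd9, a tetraspanin, 116 and 44 near Mmp12, and 97 and 47 at Ctsb, a lysosomal protease. Sums of 4 of the 7 genes were raised and 1, that of Mitf, was lowered (adjusted p = 0.0151, limma). The Mitf values are given with the other lists below. Mmp12 summed to 141.87 and 124.80 normalised tags in NASH, against 64.44 and 56.60 in control (adjusted p = 0.000989, limma), Cd9 to 139.75 and 145.60, against 76.04 and 62.32 (adjusted p = 0.00151), Anxa2 to 59.19 and 53.56, against 35.91 and 15.92 (adjusted p = 0.0209), and Cd36, a fatty acid transporter, to 147.20 and 120.64, against 88.73 and 86.22 (adjusted p = 0.0435). Without NASH library 1 the sums of Anxa2 and Cd36 were not called (adjusted p = 0.190 and 0.292, limma), and without NASH library 2 those of Anxa2, Cd36 and Cd9 were not (adjusted p = 0.215, 0.141 and 0.0686). Cd36 was not called without either control library (adjusted p = 0.0734 and 0.0653), nor was Anxa2 without control library 2 (adjusted p = 0.131). With no filter on low values Anxa2 and Cd36 were not called either (adjusted p = 0.0616 and 0.0736). No window at a strengthened site of these 7 genes was called. The list was assembled with earlier results of these data known, and 11 of its 24 tested gene sums were raised and 1 lowered.

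Kupffer cell identity genes had 3 strengthened sites at 3 of 28 genes with a pair and weakened sites at 17 of the 28. The 3 were Cd5l, Slco2b1, an organic anion transporter, and Spic, which encodes a factor needed by iron-recycling macrophages. At the Slco2b1 site, in a window of the diet ATAC list only, LXR scored 110 in NASH and 38 in control, and H3K27ac was 5.87 and 8.32 normalised tags in NASH, against 2.11 and 0.44 in control (adjusted p = 0.0720, limma). Its gene sum was raised, with 23.47 and 26.00 in NASH, against 4.23 and 3.98 in control (adjusted p = 0.00122, limma). Slco2b1 passed the low-value filter for gene sums through the NASH libraries alone, so this p value carries no support by itself. With no filter on low values the adjusted p was 0.00803 (limma). At Spic LXR scored 72 in NASH and 43 in control, while H3K27ac at the site was lower in both NASH libraries. It was 54.93 and 43.16 normalised tags in NASH, against 71.82 and 76.94 in control (adjusted p = 0.140, limma). The gene sum of Spic was lowered, with 98.66 and 87.36 in NASH, against 184.83 and 174.22 in control (adjusted p = 0.00145, limma). Without NASH library 2 these sums had adjusted p = 0.0709 at Slco2b1 and 0.0503 at Spic.

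Inflammatory NF-κB genes had 9 strengthened sites at 7 of 28 genes with a pair, against weakened sites at 12 of the 28. Tnfaip3 had 1 site in an intron with scores of 215 in NASH and 67 in control, beside the distal site already described. H3K27ac there was 22.40 and 13.52 normalised tags in NASH, against 5.28 and 7.07 in control (adjusted p = 0.0651, limma). Near Nlrp3, the inflammasome sensor, LXR scored 195 in NASH and 104 in control, near the chemokine gene Ccl3 114 and 70, and near Ccl2, which recruits monocytes, 95 and 54. Of the 7 gene sums 1, that of Tnfaip3, was raised by limma. Lowered sums numbered 0 by limma, by edgeR and by DESeq2, and 0 were lower by limma at an unadjusted p under 0.05. Over all genes limma raised 2.89% and lowered 11.0%, so 0 lowered of 7 does not set these genes apart. Of the 27 tested sums on the whole list, limma raised 3 and lowered 6. The sums of Ccl3 and Nlrp3 were raised with TMM scaling (adjusted p = 0.0177 and 0.0351) and by edgeR (0.0127 and 0.0305), which called 3 of the 7, and not by limma on the deposited scaling (adjusted p = 0.198 and 0.401) or by DESeq2 (0.114 and 0.115).

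The other lists held few members. AP-1, ATF and related factors had sites near Runx1, a myeloid transcription factor (134 in NASH, 81 in control), Irf8 (99 and 31), Bach1, a heme-regulated repressor (75 and 46), and Klf4 (72 and 31), at 4 of 26 genes, with weakened sites at 17. The lysosome list had sites at 5 of 19 genes, among them Sqstm1, the autophagy receptor p62 (108 and 45), and Mitf (70 and 46). Cholesterol transport and synthesis, beyond Abca1 and Abcg1, had Hmgcs1, of the mevalonate pathway (91 and 54), and Lipa, the lysosomal acid lipase (61 and 33). TGF-β, BMP and Notch genes had Tgfbr2, a TGF-β receptor (203 and 135), Notch4 (142 and 41) and Rbpj, the DNA-binding factor of the Notch pathway (60 and 30). Growth factors and matrix had Vegfa (121 in NASH, 40 in control), Plau, urokinase (78 and 43), and Plaur (76 and 41), and antigen presentation had H2-Ab1, a class II chain (88 and 54). The sum of H2-Ab1 was raised, with 149.86 and 123.76 normalised tags in NASH, against 75.01 and 94.62 in control (adjusted p = 0.0271, limma), and was not called without NASH library 1, NASH library 2 or control library 1 (adjusted p = 0.233, 0.121 and 0.154) or with no filter on low values (0.0569). The sums of Klf4 (180.79 and 179.92 in NASH, 322.15 and 229.04 in control, adjusted p = 0.0223) and Mitf (183.48 and 166.92, against 273.54 and 249.84, adjusted p = 0.0151) were lowered by limma. Neither was called with TMM scaling (adjusted p = 0.225 and 0.228), and both calls were lost without NASH library 1, NASH library 2 or control library 1 (adjusted p = 0.109, 0.180 and 0.324 at Klf4, and 0.05003, 0.167 and 0.0927 at Mitf). With no filter on low values Klf4 was not called either (adjusted p = 0.0600). Sums of Rbpj, Sqstm1, Plaur, Hmgcs1 and Runx1 were called raised with TMM scaling and edgeR, and not by limma on the deposited scaling with the groups as the only term. DESeq2 called Rbpj and Sqstm1 raised (adjusted p = 0.00366 and 0.0105). It did not call Plaur, Hmgcs1 or Runx1 (adjusted p = 0.0815, 0.114 and 0.0720).

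No strengthened site was nearest to a gene on the marker lists of hepatocytes, liver endothelium, stellate cells, monocytes, neutrophils, T cells, B cells or dendritic cells. In that order, only 4, 5, 1, 4, 3, 1, 2 and 3 of their genes had an LXR pair at all. Over all tested genes with a pair, 615 of 10061 had a strengthened site, so lists this short cannot show a lack of such sites. The summed H3K27ac of 5 defining Kupffer genes (Clec4f, Vsig4, Cd5l, Adgre1, C1qa) was 901 and 839 normalised tags in NASH, against 1172 and 1199 in control. These genes thus carried the mark on both diets, with less of it in NASH on the deposited scaling. That scaling puts the median log2 change of all tested gene sums at -0.29, and no sum in this paragraph is corrected for it. The whole list of 29 Kupffer identity genes summed to 3292 and 2962 in NASH, against 5048 and 4917 in control. Monocyte markers (5 of 6 in the table) summed to 649 and 621 in NASH, against 589 and 614 in control, and T cell markers (3 of 6) to 19.7 and 27.6, against 6.34 and 4.42. Hepatocyte markers (4 of 7) summed to 30.4 and 30.7 in NASH, against 24.3 and 23.9 in control. Markers that summed lower in both NASH libraries were those of endothelium (6 of 7 in the table; 103 and 87.4 in NASH, 182 and 120 in control), dendritic cells (6 of 6; 158 and 146, against 257 and 226), neutrophils (5 of 6; 73.6 and 69.7, against 99.3 and 114) and stellate cells (1 of 7; 12.3 and 10.4, against 13.7 and 16.4). B cell markers (3 of 6) overlapped between the diets, with 23.5 and 15.1 in NASH, against 16.9 and 30.1 in control. Their part in the results above was not tested, and in a sorted pool fewer cells of a kind and less signal per cell cannot be told apart.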

How the data were processed

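Groups were taken from the labels. The 10 input samples and the peritoneal macrophage library were not analysed here. Tools named in the submitters' processing notes were HOMER, DESeq2 and Bowtie2, with builds mm10 and GRCm38; their roles and versions are not given in the sources used here. Values of H3K27ac as deposited are a signal in tags normalised with HOMER to a total of 10000000, per the file headers; multiplying by the library totals in the headers gave whole tags within 0.02 for 100% of values. Libraries held 18749728 and 19231109 tags (NASH) and 9468035 and 22615879 (control), of which 7.91 to 9.60% lay in windows; 3 tags equal 1.60, 1.56, 3.17 and 1.33 normalised tags. Replicates correlated across windows at 0.887 (NASH) and 0.847 (control), and their tags differed beyond sampling noise (chi-square over degrees of freedom 1.93 and 2.36), so each counted once. For LXR, P300 and ATF3 the authors deposited 1 list per diet from 2 libraries, each site with an IDR score. The LXR and P300 lists add an enrichment score and used an IDR threshold of 0.05, per the file headers. The ATF3 columns have no names, and the position of the IDR score in the other lists was used.

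Sites were paired 1 to 1 by overlap (bedtools 2.31.1). A site took the gene of its window in the authors' annotation, or the nearest RefSeq gene start of the same build where it had no window. Raw counts had been planned for the tests; as the values are normalised, limma 3.58.1 was fitted to log2(value + 1) over all windows and all gene sums kept by filterByExpr of edgeR 4.0.16 on the recovered tags (35947 windows, 11593 genes), with Benjamini-Hochberg adjustment over the whole table; TMM scaling, edgeR and DESeq2 1.42.0 were alternatives. The count test on the recovered tags (edgeR with TMM) called 1357 raised windows against 1130 lowered ones; for gene sums these counts were 838 and 747. The 12 windows with no gene name stayed out of gene sums. The fits were tested on simulated data. With no genome at hand, motifs were searched in RefSeq promoter windows only. Motif searches in windows centred on the sites were not made.

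Named sites were the 10 highest NASH scores, the 10 largest ratios, up to 10 called windows by adjusted p and up to 4 per gene list, 1 site per gene. The members, lists and tests were chosen with earlier results of these data known.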

Additional observations from a re-analysis of the deposited data

How the results depend on the processing

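The count of strengthened windows raised for H3K27ac was 34 and moved with the processing: 61 with TMM scaling, 71 with edgeR, 16 with DESeq2, 7 with no filter, 72 with windows within 1000 bp summed, and 7 to 53 when 1 library was left out. Lowered windows were 0 in the report, 2 with windows summed and 0 to 3 with a library left out. Gene sums raised were 86, against 180 with TMM scaling, 185 with edgeR and 32 to 101 with a library left out; those lowered were 39, against 18, 19 and 8 with TMM scaling, edgeR and DESeq2, and 7 to 52 with a library left out. Leaving out a library leaves 1 sample in an arm, assumed to vary like the others. For these fits and for the summed windows the shares called over the whole table are not given here. Their counts alone therefore do not set the strengthened sites apart. The number of strengthened pairs was 826, with 234 at a ratio of at least 2, 315 at a NASH score of at least 100, 1949 with ratios divided by the median of all pairs, and 839 with every overlapping pair kept, an alternative chosen after seeing the data. With sites of the highest IDR score only, P300 was in both lists at 66 and ATF3 at 144 strengthened sites. A DR4 was in 0 promoter windows at 1 mismatch and 4 at up to 3.

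The replicate numbers did not pair the libraries: deviations of same-numbered libraries correlated at 0.040 across windows and 0.032 across genes, with 2 pairs. With the number as a replicate block, 59 windows were raised, 1 lowered, and 119 gene sums were raised and 67 lowered. The shares of all windows and genes called under the block are not given here. These counts alone therefore do not set the strengthened sites apart. Among the list genes with a strengthened site, calls made under the block and not without it were Rbpj, Plaur and Hmgcs1 raised (adjusted p = 0.0107, 0.0108 and 0.00990, limma) and Plau lowered (adjusted p = 0.0389).

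The other 33 counts lay within 1.5 times the reported one, beside 31 that moved, and none of the called values changed sign. Among named values that were not called there were 36 sign changes, so their directions are not settled. Tag counts limit the windows, since 373 of the 723 were too low to test, and the LXR, P300 and ATF3 lists carry no replicate error.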
